A study of Mus musculus with 16 samples.

Results

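The 39 genes described here are known from hepatic stellate cells or from the extracellular matrix of the liver. They were taken as the entries of the deposited table whose symbol is on a list of 39 names, and each name matched 1 of the 27446 entries. RNA was sequenced in 16 liver libraries of wild-type C57BL/6 mice: 8 libraries from animals given emodin, an anthraquinone of rhubarb root, by stomach tube at 400 mg/kg over 3 weeks in a 0.5% solution of sodium carboxymethyl cellulose (CMC-Na), and 8 from vehicle animals given the 0.5% CMC-Na solution without emodin. Per the labels' protocols, both groups were acclimated for 7 days and the liver was taken after the last dose. The labels do not state whether every library stands for 1 animal, so p-values measure the spread between these libraries, each called a liver below.

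Stellate cells lie between hepatocytes and the sinusoidal endothelium, store vitamin A as retinyl esters and act as the pericytes of the sinusoid. When activated by transforming growth factor beta or platelet-derived growth factor they become contractile myofibroblasts and deposit fibrillar collagen, and matrix metalloproteinases and their TIMP inhibitors set how much of it stays. Collagens IV, XV and XVIII belong to basement membranes, collagen VI to microfibrils around cells, and fibronectin and several other matrix proteins of the liver are also made by hepatocytes. In RNA of whole liver, fewer cells of a type and less RNA per cell cannot be told apart.

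Depth was 38.6 ± 6.91 M estimated counts in emodin livers and 32.3 ± 3.16 M in vehicle livers (SD, n = 8 each; M, mega), with totals between 28.3 and 48.2 M. Levels are CPM, estimated counts per M counts of the library after TMM scaling, which corrects for depth and for differences in RNA composition. Emodin 7 and vehicle 2 stood apart in 16 skeletal muscle genes, whose summed level was 1434 CPM in emodin 7 and 4960 CPM in vehicle 2, against 6.42 to 20.7 CPM in the other emodin livers and 17.6 to 32.5 CPM in the other vehicle livers. Des and, in smooth muscle, Acta2 and Tagln are themselves muscle genes, so results are given with and without emodin 7 and vehicle 2. The liver identity of the tissue was clear in hepatocyte genes: Alb, the serum albumin gene, was at 38215 to 78568 CPM in emodin livers and 72639 to 100479 CPM in vehicle livers.

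No tested member of the set was called higher with emodin, and the genes that encode the main scar collagens did not pass the test in either direction. Of the 39 genes, 38 were high enough to be tested with edgeR's quasi-likelihood test, in which a gene was called at a Benjamini-Hochberg adjusted p under 0.05. Of these, 0 rose and 2 fell, Rgs5 and Col5a1. Over all 14308 entries tested, 13.2% were called, 7.70% higher and 5.47% lower, and the share of members called was 5.26%, all lower and near the 5.47% of the whole table. At an unadjusted p under 0.05 stood 8 of the 38 (21.1%), all with negative values: Rgs5, Col5a1, Reln, Col6a3, Fbln5, Col18a1, Loxl1 and Col6a2. The same threshold took in 29.7% of all entries. DESeq2 called 4 members, all lower (Rgs5, Col5a1, Reln and Col6a3), and 0 higher. Limma with array weights called 2, Rgs5 and Col5a1, both lower.

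The fold changes leaned to the lower side, though only Rgs5 and Col5a1 passed gene by gene. The log2 fold change (emodin over vehicle) was below 0 in 29 of the 38 tested members (76.3%), against 48.4% of all entries, and its median was -0.23, against 0.01 over all entries. Leaving out vehicle 2 alone brought the members' median to -0.07, and leaving out emodin 7 alone to -0.33. Values ran between -1.56 for Des and 0.26 for Acta2, and only Des and Loxl1 lay beyond 1 in size. For 24 of the 38, the 95% interval of the log2 fold change lay wholly between -1 and 1. The levels of the 8 emodin livers were separate from those of the 8 vehicle livers in 0 members, against 1.97% of all entries.

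A few livers in each group stood out across the set. Vehicle 2 had the highest level of all 16 livers for 21 of the 39 genes, and its ratio to the vehicle median was 1.68 for the median gene. In vehicle 6 that ratio was 1.28, and in the other vehicle livers it lay between 0.813 and 1.05. On the emodin side, emodin 5 had the lowest level of all livers for 15 genes and emodin 2 for 10, with ratios of 0.624 and 0.697. Emodin 6 followed at 0.760, and the other emodin livers lay between 0.950 and 1.12, so the emodin group held both low livers and livers at the vehicle level. Without emodin 7 and vehicle 2, edgeR called 14.2% of the 14283 entries tested (8.31% higher, 5.85% lower) and 0 members higher and 1 lower, which was Rgs5. The median log2 fold change of the members was then -0.15, against 0.02 over all entries, and 26 of 38 were below 0. The groups were again separate in 0 members, against 3.30% of all entries.

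**Figure D1:**
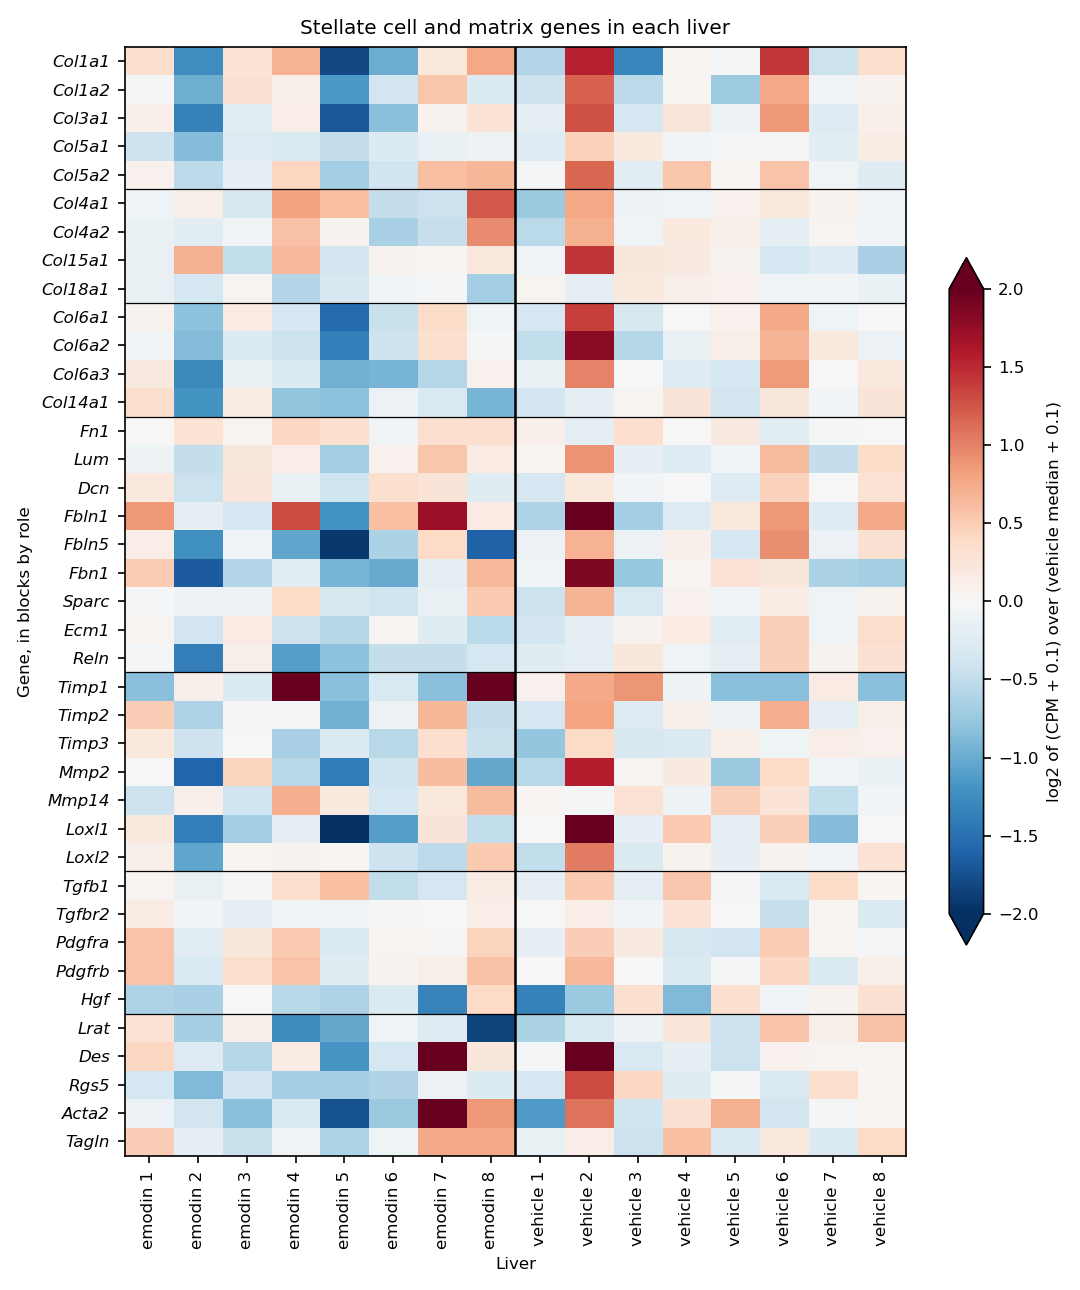
Level of each of the 39 genes (rows, in blocks by role) in each liver (columns, emodin left, vehicle right), coloured by the log2 of (CPM + 0.1) over (vehicle median + 0.1). Vehicle 2 is red in most rows, emodin 2 and emodin 5 are blue in most rows, and Des is darkest in emodin 7 and vehicle 2.

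Rgs5 encodes a regulator of G-protein signalling that marks pericytes and vascular smooth muscle. It spans chr1:169655501-169695813 on the plus strand (mm10). Its level was 19.4 to 33.2 CPM in emodin livers (median 25.6) and 28.4 to 88.8 CPM in vehicle livers (median 35.9). All 8 emodin livers lay below the vehicle median and 6 of 8 below every vehicle liver, while emodin 7 and emodin 8 overlapped with vehicle 1, vehicle 4 and vehicle 6; vehicle 2 was far above the rest, the next being vehicle 3 at 48.0 CPM. Rgs5 averaged 25.9 ± 4.53 CPM in emodin livers and 42.7 ± 20.002 CPM in vehicle livers (SD, n = 8 each) and fell, with a log2 fold change of -0.72 (SE 0.21, edgeR adjusted p = 0.0332). It also fell without emodin 7 and vehicle 2, with a log2 fold change of -0.54 (SE 0.13, edgeR adjusted p = 0.0172). The call did not hold with total counts as the scaling (edgeR adjusted p = 0.0504), without the filter (0.0542), or without emodin 2, emodin 4, emodin 5, emodin 6, vehicle 3 or vehicle 7 (log2 fold changes of -0.67, -0.70, -0.70, -0.69, -0.69 and -0.71). Leaving out vehicle 2 alone moved the value to -0.48 and kept the call, and adjusted p ran from 0.00671 to 0.0881 over all alternatives.

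Col5a1 encodes the alpha 1 chain of collagen V, a minor fibrillar collagen that helps to start type I fibrils. It spans chr2:27886425-28039514 on the plus strand. Its level was 2.87 to 4.92 CPM in emodin livers (median 4.33) and 4.41 to 7.34 CPM in vehicle livers (median 5.31). Emodin 2 was lowest and vehicle 2 highest, all 8 emodin livers lay below the vehicle median and 5 of 8 below every vehicle liver. Col5a1 averaged 4.18 ± 0.657 CPM in emodin livers and 5.51 ± 0.942 CPM in vehicle livers (SD, n = 8 each) and fell by a small amount, with a log2 fold change of -0.40 (SE 0.13, edgeR adjusted p = 0.0462). The call stood close to the threshold: without emodin 7 and vehicle 2 the log2 fold change was -0.36 with an edgeR adjusted p of 0.0664. With single livers left out it was kept only without emodin 7, emodin 8, vehicle 1 or vehicle 7. It was lost without each of the other 12 livers, with log2 fold changes between -0.41 and -0.33. It was also lost with total counts as the scaling (-0.37, adjusted p = 0.104) and without the filter (-0.39, adjusted p = 0.0768), and adjusted p ran from 0.0188 to 0.116 over all alternatives.

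The 250 bases before the RefSeq start (GRCm38.p6) are shown for Rgs5 and Col5a1 because they are the only members that passed the test. Capitals mark a CCAAT box, the GC box core GGGCGG or the SMAD element core CAGACA, each on either strand. The Rgs5 window is chr1:169655251-169655500 and the Col5a1 window chr2:27886175-27886424, both on the plus strand.
Rgs5: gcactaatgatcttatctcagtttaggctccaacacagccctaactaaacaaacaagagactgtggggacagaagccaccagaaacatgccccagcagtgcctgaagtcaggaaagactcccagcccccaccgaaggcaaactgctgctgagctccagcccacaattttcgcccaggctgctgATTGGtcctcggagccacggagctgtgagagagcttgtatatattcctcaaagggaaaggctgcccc
Col5a1: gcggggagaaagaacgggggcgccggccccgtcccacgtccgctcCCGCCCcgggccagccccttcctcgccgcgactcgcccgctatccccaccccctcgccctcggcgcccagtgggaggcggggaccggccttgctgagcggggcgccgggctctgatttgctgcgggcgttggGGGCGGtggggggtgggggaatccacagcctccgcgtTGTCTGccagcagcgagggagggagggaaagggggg
The Rgs5 window held 1 CCAAT box, 67 bases before the start. The Col5a1 window held the GC box core at 205 and 73 bases before the start, and the core of the element bound by SMAD proteins at 36. The motifs overlapped each other in neither window. Windows were given for 28 of the 39 members, 33 windows in all. The GC box core stood in 54.5% of these windows and 32.7% of all 32851 windows of the same length. The SMAD element core stood in 30.3% of the members' windows and 17.1% of all, and the CCAAT box in 33.3% of the members' windows and 33.8% of all. The TATA box, searched as TATAAA, stood in 6.1% of the members' windows and 12.4% of all. The CArG box of serum response factor was searched strictly as CCWWWWWWGG, with W for A or T. It stood in 0.0% of the members' windows and 1.5% of all, and boxes that differ by a base were not counted. These shares describe the letters in the windows and were not tested.

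**Figure D2:**
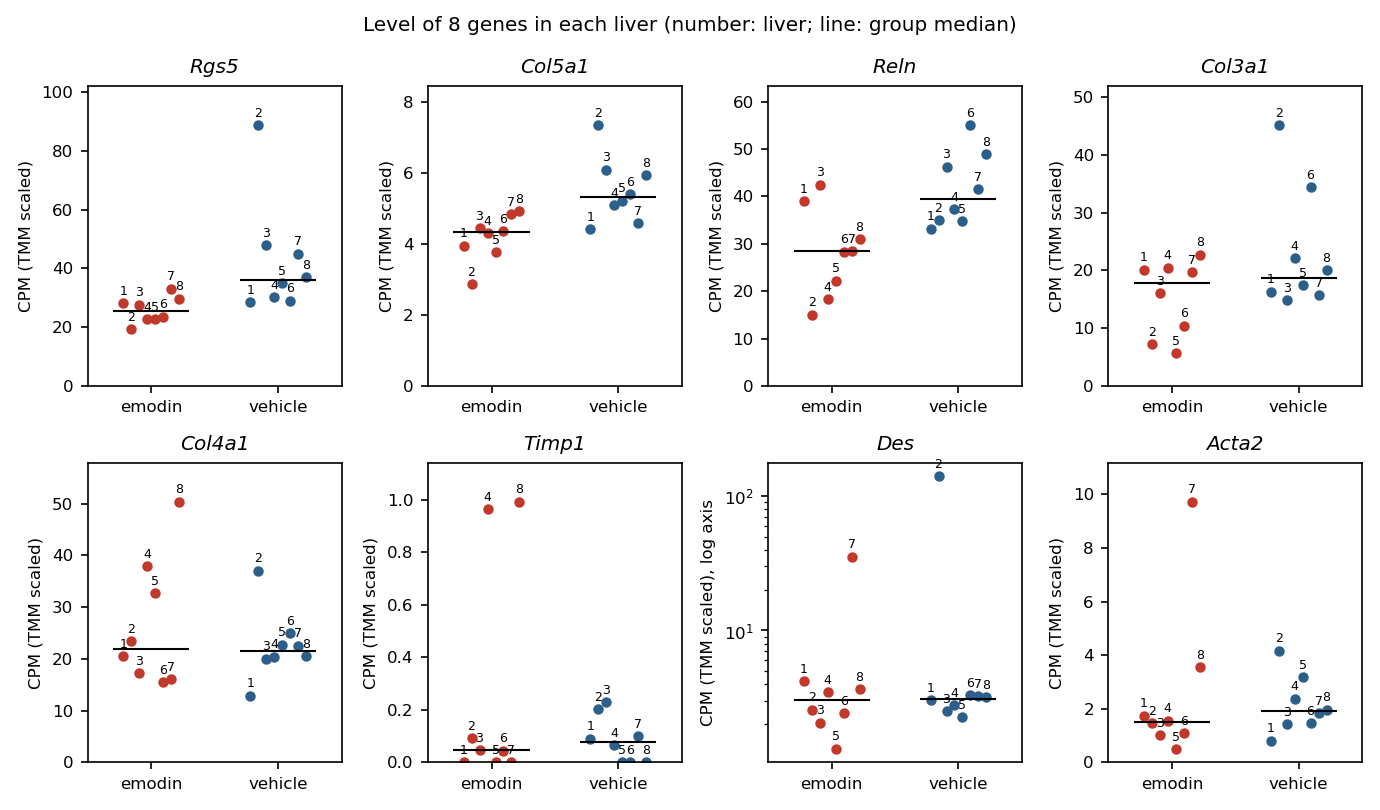
CPM of 8 of the genes in each liver (points, numbered by liver; emodin left, vehicle right; line, group median; log axis for Des). Rgs5, Col5a1 and Reln sit lower in most emodin livers, while vehicle 2 (88.8 CPM for Rgs5, 141 CPM for Des) and emodin 7 (35.4 CPM for Des) stand apart.

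Of 5 fibrillar collagens tested, the scaffold of hepatic scar tissue, 0 were called higher and 1 was called lower (Col5a1). All 5 log2 fold changes were below 0, with a median of -0.39, or -0.22 without emodin 7 and vehicle 2. Col1a1, the alpha 1 chain of collagen I, was at 0.925 to 5.99 CPM in emodin livers (median 4.12) and 1.35 to 10.3 CPM in vehicle livers (median 3.47). Emodin 2, emodin 5 and emodin 6 were low, vehicle 2 and vehicle 6 were high, and the groups overlapped almost fully, with the emodin median above the vehicle median. Its log2 fold change was -0.39 (95% interval -1.36 to 0.57, edgeR adjusted p = 0.593), so the spread between livers leaves room for a change in either direction. The interval without emodin 7 and vehicle 2 was -1.16 to 0.86.

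Col3a1, which encodes collagen III of thin reticular fibres, was at 5.73 to 22.7 CPM in emodin livers (median 17.9) and 14.8 to 45.2 CPM in vehicle livers (median 18.7). The same livers stood out: emodin 2, emodin 5 and emodin 6 lay below every vehicle liver, and vehicle 2 and vehicle 6 lay above every emodin liver. Its log2 fold change was -0.60 (SE 0.31, edgeR adjusted p = 0.211), and -0.45 without emodin 7 and vehicle 2. Col1a2, the second chain of collagen I, had medians of 7.15 CPM in emodin livers and 7.90 CPM in vehicle livers (log2 fold change -0.31, SE 0.29). Col5a2, which pairs with Col5a1, had medians of 2.04 CPM in emodin livers and 2.11 CPM in vehicle livers (log2 fold change -0.23, SE 0.25). Neither passed the test, with edgeR adjusted p of 0.508 for Col1a2 and 0.585 for Col5a2.

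Of the 4 basement membrane collagens 0 were called, and their median log2 fold change was -0.02, or 0.24 without emodin 7 and vehicle 2. Col4a1, a chain of the collagen IV network, was at 15.5 to 50.4 CPM in emodin livers (median 22.0) and 12.9 to 37.0 CPM in vehicle livers (median 21.6). It was high in emodin 8 (50.4 CPM), emodin 4 (37.9 CPM) and emodin 5 (32.7 CPM), while the other 5 emodin livers lay between 15.5 and 23.4 CPM and the vehicle livers other than vehicle 2 at 24.9 CPM or lower. Its log2 fold change was 0.24 (95% interval -0.31 to 0.79, edgeR adjusted p = 0.567), and 0.46 without emodin 7 and vehicle 2 (edgeR adjusted p = 0.220). Col4a2, its partner chain, was highest in emodin 8 (25.9 CPM), then in vehicle 2 (21.8 CPM) and emodin 4 (20.1 CPM), with a log2 fold change of 0.04 (SE 0.22). Col4a1 and Col4a2 lie head to head on chromosome 8, at chr8:11198423-11312826 on the minus strand and chr8:11312805-11449287 on the plus strand, and their models share 22 bases.

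Col18a1 is the precursor of endostatin and is made by hepatocytes as well as by non-parenchymal cells. It was at 325 to 545 CPM in emodin livers (median 444) and 459 to 598 CPM in vehicle livers (median 524). Emodin 2, emodin 4, emodin 5 and emodin 8 lay below every vehicle liver and the other 4 emodin livers within the vehicle range. Col18a1 had a log2 fold change of -0.25 (SE 0.11, edgeR adjusted p = 0.131), and -0.31 without emodin 7 and vehicle 2 (edgeR adjusted p = 0.0838). Col15a1, of the membranes around vessels, had medians of 4.71 CPM in emodin livers and 4.54 CPM in vehicle livers, and its direction depended on the livers used: -0.07 with all 16 and 0.26 without emodin 7 and vehicle 2.

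Collagen VI and collagen XIV, a fibril-associated collagen, had the lowest median of the collagen groups, -0.60 with all livers and -0.43 without emodin 7 and vehicle 2, and 0 of 4 were called. The 3 chains of collagen VI gave close values. Col6a3 was at 1.91 to 5.49 CPM in emodin livers (median 3.59) and 3.75 to 9.66 CPM in vehicle livers (median 4.83). The lower end of the emodin group was emodin 2, and 4 of 8 emodin livers lay below every vehicle liver. Col6a3 had a log2 fold change of -0.66 (SE 0.25, edgeR adjusted p = 0.0857), and DESeq2 called it lower (adjusted p = 0.0466), while without emodin 7 and vehicle 2 the value was -0.49 (edgeR adjusted p = 0.195). Log2 fold changes were -0.54 (SE 0.29) for Col6a1, -0.73 (SE 0.33) for Col6a2 and -0.35 (SE 0.20) for Col14a1, with edgeR adjusted p of 0.212, 0.148 and 0.261.

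**Figure D3:**
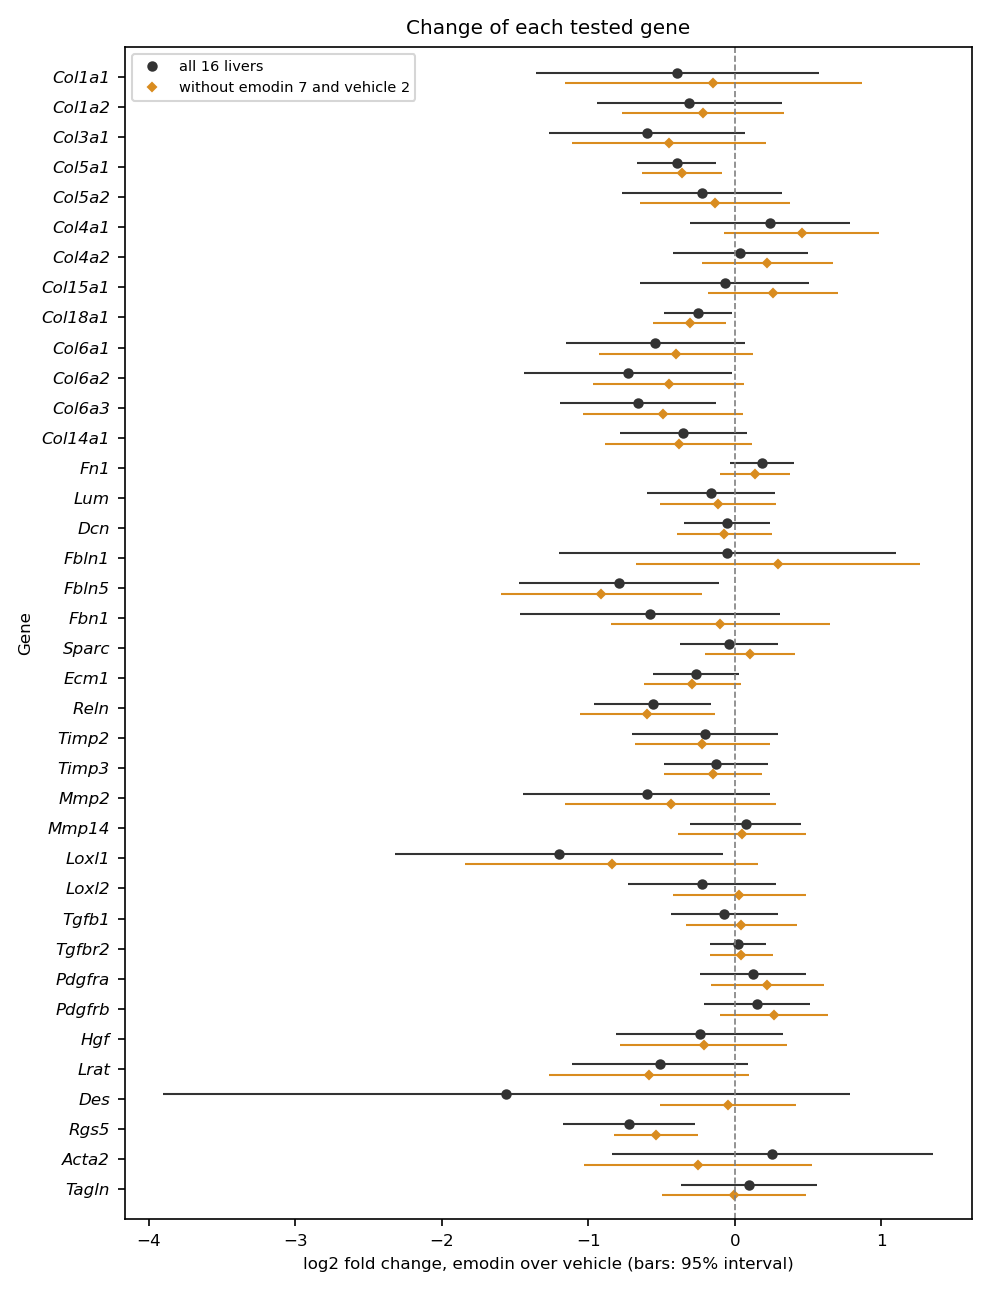
Log2 fold change (emodin over vehicle) of the 38 tested genes with its 95% interval, with all 16 livers (dark circles) and without emodin 7 and vehicle 2 (orange diamonds). Most points lie left of 0, the intervals of most genes cross it, and Des is at -1.56 with all livers and -0.05 without those 2.

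Among 9 matrix proteins that are not collagens, 0 were called and 8 had log2 fold changes below 0 (median -0.16); without emodin 7 and vehicle 2, 6 were below 0. Reln encodes reelin, a secreted glycoprotein that stellate cells make in the liver. It was at 15.1 to 42.5 CPM in emodin livers (median 28.4) and 33.2 to 55.0 CPM in vehicle livers (median 39.4). Emodin 1 and emodin 3 lay within the vehicle range and the other 6 emodin livers below every vehicle liver. Reln averaged 28.1 ± 9.52 CPM in emodin livers and 41.5 ± 7.89 CPM in vehicle livers (SD, n = 8 each), with a log2 fold change of -0.56 (SE 0.19) that just missed the threshold (edgeR adjusted p = 0.0559, and 0.0720 without emodin 7 and vehicle 2). DESeq2 called it lower (adjusted p = 0.0230), and so did edgeR without emodin 1 (-0.64, adjusted p = 0.0323) or without emodin 3 (-0.66, adjusted p = 0.0234).

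Fbln5, fibulin 5, which helps to assemble elastic fibres, was at 0.925 to 5.01 CPM in emodin livers (median 2.10) and 2.98 to 7.30 CPM in vehicle livers (median 3.80). Emodin 1, emodin 3 and emodin 7 lay within the vehicle range and the other 5 emodin livers below every vehicle liver. Fbln5 had a log2 fold change of -0.79 (SE 0.32, edgeR adjusted p = 0.108). It was -0.91 without emodin 7 and vehicle 2 (edgeR adjusted p = 0.0638) and -0.99 without emodin 7 alone, where it was called (edgeR adjusted p = 0.0380).

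Fn1, fibronectin, is secreted in bulk by hepatocytes into plasma and was the most abundant member per length. It was at 952 to 1342 CPM in emodin livers (median 1230) and 871 to 1268 CPM in vehicle livers (median 1004). The groups overlapped, with only emodin 4 above every vehicle liver. Fn1 had a log2 fold change of 0.18 (95% interval -0.04 to 0.40, edgeR adjusted p = 0.241). Ecm1, a matrix glycoprotein that restrains activation of transforming growth factor beta in mouse liver, had medians of 61.9 CPM in emodin livers and 76.9 CPM in vehicle livers (log2 fold change -0.26, SE 0.14, edgeR adjusted p = 0.207). The small proteoglycans that bind collagen fibrils did not pass the test, with log2 fold changes of -0.06 (SE 0.14) for Dcn, decorin, and -0.16 (SE 0.20) for Lum, lumican. For Fbn1, the microfibril protein fibrillin 1, the log2 fold change was -0.58 (SE 0.41) with all livers and -0.10 without emodin 7 and vehicle 2. Sparc, a collagen-binding protein, and Fbln1, fibulin 1, had values near 0 whose sign turned when those 2 livers were left out: Sparc had -0.04 with all livers and 0.10 without them, and Fbln1 had -0.05 with all livers and 0.29 without them.

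Of the genes that break down, protect or crosslink matrix, 0 of 6 tested were called, with a median log2 fold change of -0.21. Timp1, the inhibitor of metalloproteinases that rises in fibrosing liver, was too low for the fit in most livers. It had 42 estimated counts in emodin 4 and 39 in emodin 8, 0 to 4 in the other emodin livers and 0 to 7 in vehicle livers. That is 0.965 CPM in emodin 4 and 0.993 CPM in emodin 8, against at most 0.0911 CPM in the other emodin livers and at most 0.231 CPM in vehicle livers. The 2 livers stood above all 8 vehicle livers and the other 6 emodin livers did not, and the means, 0.268 ± 0.440 CPM in emodin livers and 0.0864 ± 0.0904 CPM in vehicle livers, did not pass an exact two-sided permutation test (p = 0.424; n = 8 each). Without emodin 4 the difference in means was 0.0816 CPM and without emodin 8 it was 0.0775 CPM, against 0.181 CPM with all livers. The same livers were high in the summed level of 7 cholangiocyte genes. It was 186 CPM in emodin 4 and 130 CPM in emodin 8, against 39.3 to 58.5 CPM in the other emodin livers and 45.3 to 76.3 CPM in vehicle livers. Of these sums, Sox9 gave 14.2 CPM in emodin 4 and 20.1 CPM in emodin 8. The summed level of 9 acute phase genes was 23276 CPM in emodin 4 and 17137 CPM in emodin 8. It was also high in emodin 2 (23238 CPM) and emodin 5 (12657 CPM), where Timp1 was low. The part of bile duct cells or of the acute phase response in the Timp1 level was not tested.

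The inhibitors Timp2 and Timp3 had log2 fold changes of -0.21 (SE 0.23) and -0.13 (SE 0.17). The membrane-bound protease Mmp14, which activates the gelatinase Mmp2, was at 14.2 to 31.4 CPM in emodin livers and 13.4 to 26.3 CPM in vehicle livers (log2 fold change 0.08, SE 0.18), while Mmp2 itself had medians of 0.905 CPM in emodin livers and 1.29 CPM in vehicle livers (-0.60, SE 0.39). Loxl1 and Loxl2 are lysyl oxidase-like enzymes that crosslink elastin and collagen. Loxl1 was at 0 to 0.840 CPM in emodin livers (median 0.426) and 0.334 to 3.27 CPM in vehicle livers (median 0.689), the highest value being vehicle 2. Its log2 fold change of -1.20 (SE 0.52, edgeR adjusted p = 0.134) was -0.84 without emodin 7 and vehicle 2, on few counts. For Loxl2 the log2 fold change was -0.22 (SE 0.24) with all livers and 0.03 without those 2.

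Of 5 growth factors and receptors of stellate cells, 0 were called, and their median log2 fold change was 0.02. Tgfb1, the ligand that drives stellate activation, was at 3.49 to 7.58 CPM in emodin livers (median 5.01) and 3.98 to 7.23 CPM in vehicle livers (median 4.96). The ranges all but coincided, with emodin 5 highest and emodin 6 lowest of the 16. Its log2 fold change was -0.07 (95% interval -0.44 to 0.29, edgeR adjusted p = 0.816). Tgfbr2, its type II receptor, was at 22.7 to 28.8 CPM in emodin livers and 18.8 to 31.6 CPM in vehicle livers, and its interval of -0.17 to 0.22 was the narrowest of all members.

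Pdgfrb, the receptor through which platelet-derived growth factor makes stellate cells divide, was at 3.51 to 6.57 CPM in emodin livers (median 5.15) and 3.54 to 6.85 CPM in vehicle livers (median 4.35). Both groups spanned the same range, with emodin 1, emodin 4 and emodin 8 at the upper end of theirs and vehicle 2 at the top of the other. Pdgfrb had a log2 fold change of 0.15 (95% interval -0.21 to 0.51, edgeR adjusted p = 0.587). Pdgfra, the alpha receptor, had a log2 fold change of 0.12 (SE 0.17). Hgf, the hepatocyte mitogen that stellate cells secrete, was at 2.13 to 7.31 CPM in emodin livers (median 3.67) and 2.12 to 6.97 CPM in vehicle livers (median 5.55). Emodin 8 was highest and vehicle 1 and emodin 7 lowest of the 16, and the log2 fold change was -0.24 (95% interval -0.81 to 0.33, edgeR adjusted p = 0.578).

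Of 5 genes that mark stellate cells, pericytes or contractile cells, 1 fell (Rgs5) and 0 rose. Lrat encodes the acyltransferase that esterifies retinol for storage and is the marker most specific to quiescent stellate cells among the members. It was at 3.57 to 15.95 CPM in emodin livers (median 9.62) and 8.37 to 19.7 CPM in vehicle livers (median 13.1). Emodin 2, emodin 4, emodin 5 and emodin 8 lay below every vehicle liver, the last at 3.57 CPM, and the other 4 emodin livers lay within the vehicle range. Lrat averaged 9.62 ± 4.41 CPM in emodin livers and 13.7 ± 4.30 CPM in vehicle livers (SD, n = 8 each), with a log2 fold change of -0.51 (SE 0.28) that did not pass the test (edgeR adjusted p = 0.233, and 0.220 without emodin 7 and vehicle 2). The same 4 emodin livers, and no other, lay below every vehicle liver in Lrat, Col18a1, Col14a1 and Ecm1. These 4 were also those with the highest summed level of 9 acute phase genes, 12657 to 23276 CPM, against 4283 to 7336 CPM in the other 4 emodin livers and 3392 to 3981 CPM in vehicle livers. The part of the acute phase response in these levels was not tested.

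Des encodes desmin, the intermediate filament of stellate cells in rodents and of striated muscle, and its result rested on the livers with skeletal muscle RNA. It was at 35.4 CPM in emodin 7 and 141 CPM in vehicle 2, against 1.32 to 4.17 CPM in the other emodin livers and 2.28 to 3.29 CPM in the other vehicle livers. With all livers the log2 fold change was -1.56 (95% interval -3.90 to 0.78, edgeR adjusted p = 0.362). With both left out it was -0.05 (95% interval -0.51 to 0.42, edgeR adjusted p = 0.906).

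Acta2, the smooth muscle actin that marks activated stellate cells, was at 0.498 to 9.72 CPM in emodin livers (median 1.51) and 0.816 to 4.16 CPM in vehicle livers (median 1.903). Emodin 7 and vehicle 2 were the highest livers of their groups, and emodin 8 followed in its group at 3.54 CPM. Acta2 had a log2 fold change of 0.26 (95% interval -0.84 to 1.36, edgeR adjusted p = 0.776) with all livers, and of -0.25 (95% interval -1.03 to 0.53) without emodin 7 and vehicle 2. Tagln, transgelin, a contractile protein of the same cells, was at 3.42 to 9.04 CPM in emodin livers and 3.92 to 8.07 CPM in vehicle livers, with a log2 fold change of 0.10 (SE 0.22), or -0.01 without those livers. The exons of Tagln share 1349 bases with genes on the other strand, and whether strand was used in counting is not given in the sources used here. Of the 39 members, 12 share exon bases in this way, among them the called member Col5a1 (212 bases).

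How members varied together was looked at in 5 pairs within each group, 10 relations in all, with exact permutation p adjusted over the 10 and r taken on log2 CPM. Col1a1 and Col3a1 went together in both groups, with Pearson's r of 0.981 in emodin livers (rho 0.976, adjusted exact permutation p = 0.000827) and 0.940 in vehicle livers (rho 0.952, adjusted exact permutation p = 0.000827; n = 8 each). Without the 2 livers farthest from the median of Col1a1, r was 0.953 in emodin livers and 0.825 in vehicle livers, so the relation did not rest on them. Adjusted exact permutation p for rho was 0.00380 in each group. With emodin 7 and vehicle 2 left out, r was 0.986 in emodin livers and 0.930 in vehicle livers.

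Col4a1 and Col4a2 went together in emodin livers (r = 0.932, adjusted exact permutation p = 0.00130; rho 0.905, adjusted p = 0.0114; 0.750 without emodin 4 and emodin 8). In vehicle livers r was 0.884 (adjusted exact permutation p = 0.0556; rho 0.500, adjusted p = 0.347) but -0.383 without vehicle 1 and vehicle 2, so it rested on those livers. Leaving out emodin 7 gave an r of 0.921 in emodin livers, with a rho of 0.857 that no longer passed (adjusted exact permutation p = 0.0595), and leaving out vehicle 2 gave an r of 0.732 in vehicle livers. Acta2 and Tagln went together in emodin livers (r = 0.883, adjusted exact permutation p = 0.000827; rho 0.952, adjusted p = 0.00380; 0.891 without emodin 5 and emodin 7) and not detectably in vehicle livers (r = 0.237, adjusted exact permutation p = 0.714; rho 0.262, adjusted p = 0.596; 0.118 without vehicle 1 and vehicle 2), and the difference between the groups was not tested. Their r was 0.907 without emodin 7 in emodin livers and 0.209 without vehicle 2 in vehicle livers.

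Neither Col1a1 with Lrat nor Pdgfrb with Des passed. For Col1a1 with Lrat, r was -0.102 in emodin livers (adjusted exact permutation p = 0.809; rho -0.190, adjusted p = 0.665; -0.556 without emodin 2 and emodin 5) and 0.344 in vehicle livers (adjusted exact permutation p = 0.570; rho 0.429, adjusted p = 0.374; 0.483 without vehicle 2 and vehicle 6). For Pdgfrb with Des, r was 0.177 in emodin livers (adjusted exact permutation p = 0.809; rho 0.476, adjusted p = 0.347; -0.342 without emodin 2 and emodin 5) and 0.730 in vehicle livers (adjusted exact permutation p = 0.0622; rho 0.571, adjusted p = 0.302; -0.124 without vehicle 2 and vehicle 6). Both values moved with the libraries that carry muscle RNA: r was 0.748 in emodin livers without emodin 7 (adjusted exact permutation p = 0.116) and 0.253 in vehicle livers without vehicle 2 (adjusted exact permutation p = 0.722). For Col1a1 with Lrat, leaving out the same libraries gave -0.140 in emodin livers and 0.648 in vehicle livers (adjusted exact permutation p = 0.755 in emodin livers and 0.165 in vehicle livers).

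**Figure D4:**
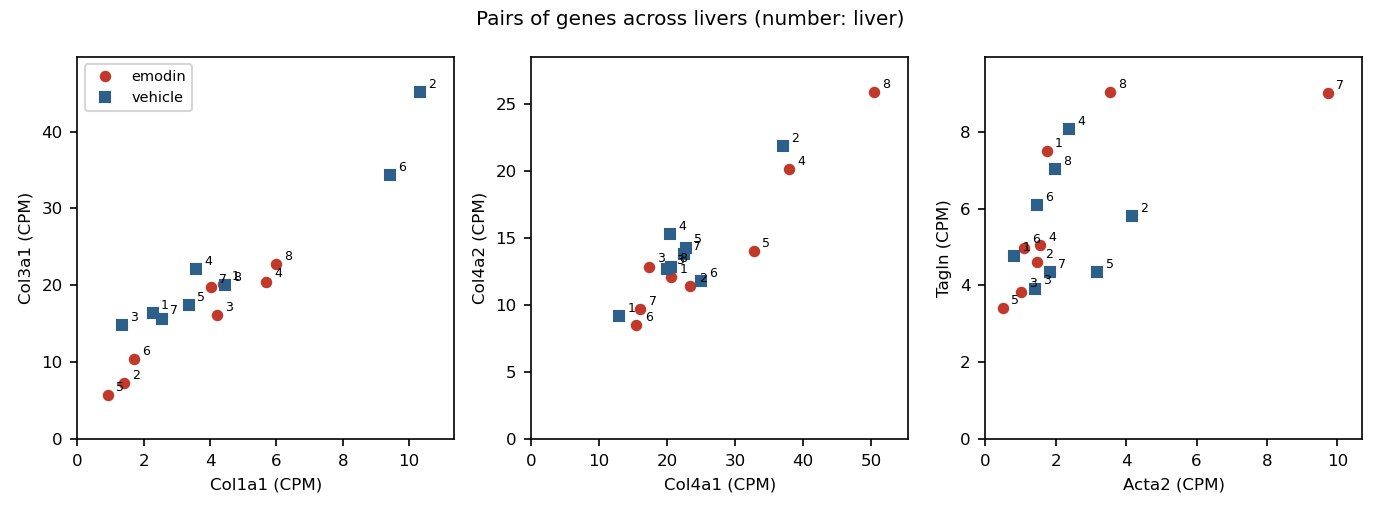
CPM of 3 pairs of genes across livers (red circles, emodin; blue squares, vehicle; numbers, liver). Col1a1 and Col3a1 line up in both groups, with emodin 2, emodin 5 and emodin 6 at the low end and vehicle 2 and vehicle 6 at the high end, while Acta2 and Tagln line up in emodin livers.

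Levels of different genes are compared per length, as median CPM per kilobase of exon (GENCODE M21 models). Fn1 led with 105 in emodin livers and 85.9 in vehicle livers, followed by Col18a1 with 63.3 in emodin livers and 74.6 in vehicle livers. Ecm1 came next with 24.5 in emodin livers and 30.5 in vehicle livers, beside Dcn with 25.3 in emodin livers and 24.7 in vehicle livers, and the ranges of these 2 overlapped. Rgs5 stood at 5.64 in emodin livers and 7.90 in vehicle livers, above Lrat (1.80 in emodin livers and 2.45 in vehicle livers). The fibrillar collagens were low in both groups: Col3a1 was at 1.82 in emodin livers and 1.91 in vehicle livers, and Col1a1 at 0.627 in emodin livers and 0.529 in vehicle livers. The lowest were Fbln1, at 0.121 in emodin livers and 0.0866 in vehicle livers, and Timp1.

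**Figure D5:**
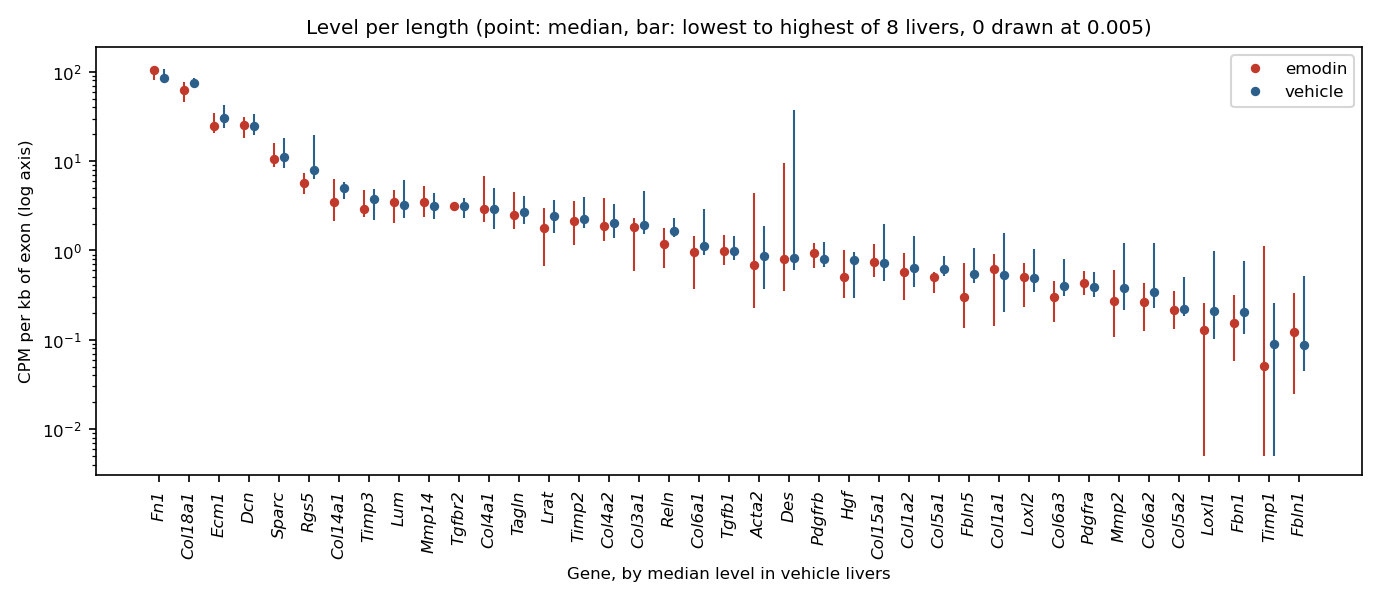
Median CPM per kilobase of exon (points; log axis) with the lowest and highest of 8 livers (bars; 0 is drawn at 0.005) for each gene, emodin left and vehicle right, ordered by the vehicle median. Fn1 (105 in emodin livers, 85.9 in vehicle livers) and Col18a1 are highest, and the bars of Timp1 and Des are long, Timp1 because some livers are at 0.

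Genes of the same pathways outside the 39 showed a few changes. Over all entries tested, 7.70% were called higher and 5.47% lower, the shares to set beside the counts of each list below. Of 36 other matrix genes tested, 0 rose and 4 fell: Nid2, Spon2, Hspg2 and Lamb1, with a median log2 fold change of -0.31 over the list. Nid2, nidogen 2, which links laminin to collagen IV in basement membranes, was at 1.67 to 4.09 CPM in emodin livers and 3.88 to 5.89 CPM in vehicle livers. Only emodin 1 reached the vehicle range, and the log2 fold change was -0.88 (SE 0.17, edgeR adjusted p = 0.00401), called also without any single liver. Hspg2, the basement membrane proteoglycan perlecan, fell by 0.58 on the log2 scale (SE 0.16, edgeR adjusted p = 0.0265; not called without emodin 2, -0.54, or emodin 4, -0.57, nor by limma with array weights, -0.42, adjusted p = 0.0595). Spon2, spondin 2, fell by 1.03 (SE 0.30, edgeR adjusted p = 0.0311) and Lamb1, laminin beta 1, by 0.54 (SE 0.16, edgeR adjusted p = 0.0362), both lost when some single livers were left out. For Spon2 these were emodin 2, emodin 5, emodin 6, vehicle 1, vehicle 3, vehicle 4 and vehicle 6 (values between -1.03 and -0.89), and Lamb1 was kept only without emodin 1, emodin 3, emodin 7, vehicle 1 or vehicle 4 (values over all 16 between -0.61 and -0.47). Without emodin 7 and vehicle 2, Lamb1 was lost (edgeR adjusted p = 0.0776) and the laminin chain Lamc1 was called higher (0.46, edgeR adjusted p = 0.0297). Total counts as the scaling lost Spon2 (adjusted p = 0.0629) and Lamb1 (adjusted p = 0.0560), and Lamb1 was lost too without the filter (adjusted p = 0.0523) and by limma with array weights (adjusted p = 0.0821).

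Across 15 genes of collagen and elastin maturation tested, the median log2 fold change was -0.002 and 8 were below 0. Of the 15, 3 rose and 0 fell. The 3 were P3h1, a prolyl 3-hydroxylase of collagen (log2 fold change 0.48, SE 0.13, edgeR adjusted p = 0.0230), P4ha2, a prolyl 4-hydroxylase subunit (0.43, SE 0.14, edgeR adjusted p = 0.0433), and the crosslinking transglutaminase Tgm2 (0.96, SE 0.30, edgeR adjusted p = 0.0457). P4ha1, another prolyl 4-hydroxylase subunit, had a value below 0 (-0.50, SE 0.17, edgeR adjusted p = 0.0586). P3h1 was called without any single liver; P4ha2 was kept only without emodin 1, emodin 3, emodin 5, emodin 6 or emodin 7, with values over all 16 between 0.34 and 0.49, and Tgm2 only without emodin 1, emodin 3, emodin 6 or emodin 7, between 0.73 and 1.08. P4ha2 was also lost without emodin 7 and vehicle 2 (0.46, edgeR adjusted p = 0.0550). Limma with array weights gave Tgm2 0.39 (adjusted p = 0.259) and P4ha2 0.30 (adjusted p = 0.121), and neither was called with total counts as the scaling (adjusted p of 0.0551 for Tgm2 and 0.0593 for P4ha2) or without the filter (0.0768 for Tgm2 and 0.0617 for P4ha2). Of 15 other proteases and inhibitors tested, edgeR called 0, with 4 at an unadjusted p under 0.05 and 2 called by DESeq2.

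Of 27 genes of transforming growth factor beta, PDGF and HGF signalling tested, 2 rose and 0 fell. The median log2 fold change was -0.08, and over all entries 7.70% were called higher and 5.47% lower. Both that rose, Skil and Smad6, are inhibitors of SMAD signalling. Other inhibitors on the list were not called: Ski (-0.22, edgeR adjusted p = 0.253), Smad7 (0.23, 0.416) and Bambi (0.30, 0.329). Skil, the corepressor SnoN, was at 12.2 to 26.8 CPM in emodin livers and 9.40 to 12.0 CPM in vehicle livers. All 8 emodin livers lay above all 8 vehicle livers, with emodin 2, emodin 4, emodin 5 and emodin 8 highest, and the log2 fold change was 0.68 (SE 0.15, edgeR adjusted p = 0.00749). Smad6, an inhibitory SMAD, was at 3.33 ± 0.564 CPM in emodin livers and 2.203 ± 0.402 CPM in vehicle livers (SD, n = 8 each; log2 fold change 0.60, SE 0.14, edgeR adjusted p = 0.0120), with 7 of 8 emodin livers above every vehicle liver. Both were called without any single liver and without emodin 7 and vehicle 2, where Pdgfa, a platelet-derived growth factor chain, was called higher too (0.56, edgeR adjusted p = 0.0398).

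Of 17 other stellate cell genes tested, 1 rose and 2 fell, with a median log2 fold change of -0.25. Gucy1b1 and Gucy1a1, the 2 chains of the nitric oxide receptor guanylyl cyclase, fell together. Gucy1b1 was at 2.94 to 5.78 CPM in emodin livers and 5.59 to 8.13 CPM in vehicle livers, with only emodin 8 in the vehicle range (log2 fold change -0.63, SE 0.13, edgeR adjusted p = 0.00687). Gucy1a1 was at 4.77 ± 1.24 CPM in emodin livers and 7.04 ± 1.07 CPM in vehicle livers (SD, n = 8 each; log2 fold change -0.56, SE 0.16, edgeR adjusted p = 0.0259, but 0.0514 without emodin 7 and vehicle 2 and 0.0599 with total counts as the scaling). Colec10, a collectin of stellate cells, was called lower only without emodin 7 and vehicle 2 (-0.49, edgeR adjusted p = 0.0451).

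Other cells of the liver share many of these genes. Of 8 smooth muscle genes tested edgeR called 0 (1 at an unadjusted p under 0.05, 2 by DESeq2). All 11 on the list summed to 274 to 512 CPM in emodin livers and 329 to 1027 CPM in vehicle livers, the last in vehicle 2 and the next at 375 CPM. Tpm2, a tropomyosin, was called lower without emodin 7 and vehicle 2 (-0.69, edgeR adjusted p = 0.0228). Of 5 mesothelial and portal fibroblast genes tested, edgeR called 0 (1 at an unadjusted p under 0.05, 1 by DESeq2). All 9 on the list summed to 28.4 to 96.5 CPM in emodin livers and 27.5 to 58.1 CPM in vehicle livers. Most of each sum was Gas6, a ligand of the AXL receptor (88.8 of the 96.5 CPM in emodin 4). Gas6 also had the smallest p (log2 fold change 0.78, SE 0.26, edgeR adjusted p = 0.0545). Of 10 sinusoidal endothelial genes, 0 rose and 1 fell, Kdr, the receptor for vascular endothelial growth factor (-0.45, SE 0.10, edgeR adjusted p = 0.00918), with sums of 190 to 282 CPM in emodin livers and 196 to 313 CPM in vehicle livers. The part of these cells in the levels of Rgs5 and Col5a1 was not tested.

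Counts in the other marker lists follow, and limma with array weights called 0 in each list where edgeR did. Of 10 Kupffer cell, 3 neutrophil, 6 cholangiocyte, 5 red cell and 2 skeletal muscle genes tested, edgeR called 0 (1 at an unadjusted p under 0.05 and 1 by DESeq2, both among cholangiocyte genes). The muscle gene Neb, nebulin, was called lower without emodin 7 and vehicle 2 (-0.89, edgeR adjusted p = 0.0436). Of 8 T, NK and B cell genes 0 rose and 1 fell. Of 9 hepatocyte genes 1 fell, Alb (-0.50, SE 0.15, edgeR adjusted p = 0.0309; lost without emodin 2, emodin 5, vehicle 3, vehicle 4, vehicle 5 or vehicle 8, between -0.49 and -0.46, and without the filter, adjusted p = 0.0726). Of 2 adipose genes 1 rose, Cidec, a lipid droplet protein that fatty hepatocytes also express (1.80, SE 0.36, edgeR adjusted p = 0.00576). All 9 acute phase genes rose, with a median log2 fold change of 2.23, and limma with array weights called 6 of the 9. Among those it did not call were Lcn2, lipocalin 2 (3.03 with array weights, adjusted p = 0.0620, and 5.93 with edgeR), and Orm2, an acid glycoprotein (2.28 with array weights, adjusted p = 0.0578, and 4.15 with edgeR). The array weights were lowest in emodin 8 (0.276), emodin 4 (0.376) and emodin 5 (0.455), against 0.714 to 1.94 in the other livers. Those low-weight livers were among the emodin livers with the highest summed level of acute phase genes.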

How the data were processed

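Liver RNA of 16 libraries was used, 8 per group, grouped by the treatment given in the labels. The authors' deposited values are estimated counts for each gene, whole numbers not scaled by depth or length; the table is labelled FPKM, but its values showed the unit. The submitters' processing notes name HISAT2, HTSeq 0.6.1, Cufflinks 2.2.1, SAMtools 0.1.19 and cutadapt 1.9.1, and the genome mm10. Their roles, the annotation and the use of strand are not given in the sources used here.

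Counts were tested in R 4.3.3 with edgeR 4.0.16: filterByExpr defaults, TMM, the robust quasi-likelihood F test on group alone, and Benjamini-Hochberg adjustment over 14308 entries. Standard errors were obtained from the fold change and the F statistic (its size over the root of F). Intervals of fold changes use the t distribution on the residual degrees of freedom and cover the spread between libraries. Timp1 was tested by exact permutation over 12870 assignments; the smallest p this allows is 0.0001554. Alternatives used DESeq2 1.42.0 and limma 3.58.1. The steps were tested on simulated counts.

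The 39 members and the other lists were chosen with earlier results of these data known. All members are named; per liver values are given for called members and for 12 chosen ones. From each other list, up to 4 called genes averaging at least 1 CPM in the higher group are named, or the gene with the smallest p; genes called only without emodin 7 and vehicle 2 were named after their values were seen. A few genes that this rule names are not reported here. Of the list genes, 1 had no entry of its name (Tf; Trf was used).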

Additional observations from a re-analysis of the deposited data

Results flagged for a closer look

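In 13 of 78 pairs of a member and a group, the highest liver stood farther from the next than Dixon's 95% limit for 8 values; chance flags about 1 in 20 groups. Of the 13, 11 were vehicle 2 and 2 were emodin 7, the libraries with skeletal muscle transcripts. In vehicle 2 these were Des at 141 CPM (next liver 3.29 CPM), Rgs5 at 88.8 CPM (48.0 CPM), Sparc at 68.4 CPM (47.5 CPM) and Col15a1 at 12.5 CPM (5.30 CPM). Vehicle 2 also stood apart in Col6a2 at 10.1 CPM (4.60 CPM), Fbn1 at 9.19 CPM (3.01 CPM), Loxl2 at 5.55 CPM (3.28 CPM) and Col5a2 at 4.83 CPM (3.17 CPM). The last were Mmp2 at 4.05 CPM (1.74 CPM), Loxl1 at 3.27 CPM (1.04 CPM) and Fbln1 at 2.28 CPM (0.777 CPM). In emodin 7 they were Des at 35.4 CPM (next liver 4.17 CPM) and Acta2 at 9.72 CPM (3.54 CPM). Vehicle 2 was also the highest of all livers in the summed level of 6 adipose genes, at 40.2 CPM against 7.24 to 11.5 CPM in the other vehicle livers. It was highest too in the sum of 5 red cell genes, at 767 CPM, the next being vehicle 7 at 537 CPM. The part of skeletal muscle, adipose or blood RNA in the levels of the members was not tested.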

How the results depend on the processing

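Members called, all of them lower, numbered 2 in the analysis above, 0 with total counts as the scaling, 0 without the filter, 4 with DESeq2, 1 without emodin 7 and vehicle 2, 2 under the other scalings and limma with array weights, and 0 to 3 with single livers left out; members called higher numbered 0 under every alternative. All entries called numbered 1451 of 22081 without the filter, 2532 with DESeq2 and 1246 (without emodin 4) to 2200 with single livers left out. Of the 38 tested members, 25 kept their direction under every alternative (22 lower, 3 higher). The other 13 turned, and the cause was not tested. With array weights, log2 fold changes turned to -0.076 for Col4a1, -0.17 for Col4a2, 0.035 for Col15a1, -0.16 for Mmp14, 0.078 for Dcn, 0.27 for Fbln1 and -0.20 for Acta2. Without emodin 7 and vehicle 2 they were 0.26 for Col15a1, 0.29 for Fbln1, 0.029 for Loxl2, 0.10 for Sparc, 0.045 for Tgfb1, -0.25 for Acta2 and -0.0053 for Tagln, and total counts gave 0.0094 for Sparc. With single livers left out, ranges crossed 0 for Col4a2 (-0.14 to 0.16), Col15a1 (-0.18 to 0.24), Mmp14 (-0.030 to 0.15), Dcn (-0.10 to 0.011), Fbln1 (-0.34 to 0.58), Sparc (-0.13 to 0.080), Tgfb1 (-0.17 to 0.0039), Tgfbr2 (-0.034 to 0.071), Des (-2.84 to 1.24, the last without vehicle 2), Acta2 (-0.46, without emodin 7, to 0.47) and Tagln (-0.017 to 0.19). The Timp1 difference in means ran from 0.0775 to 0.219 CPM. Levels of Timp1, Loxl1 and Fbln1 rest on few counts.

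Groups share replicate numbers, but little pairing by number showed. The correlation of deviations was over 0.1 in 1 of 8 pairs, number 4 (-0.149 to 0.245 over the 8). Of 16 livers, 4 went best with their own number, and pairing was not tested. With the replicate number as a block, 1263 entries and 1 member (Reln, -0.62, adjusted p = 0.0320) were called, and both members called above were lost (Rgs5, -0.62, adjusted p = 0.0881; Col5a1, -0.40, adjusted p = 0.116). Of the other genes named, Hspg2 (adjusted p = 0.0771), Lamb1 (0.0995), Tgm2 (0.0983), P3h1 (0.0768), P4ha2 (0.0641), Gucy1a1 (0.0515) and Alb (0.0657) were not called under the block. Values turned for Col4a2 (-0.015), Col15a1 (0.011), Fbln1 (0.11) and Acta2 (-0.15).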
